A study of Mus musculus with 10 samples.

Results

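The Maf genes encode basic leucine zipper transcription factors. The 4 genes described here, Maf, Maff, Mafg and Mafk, were taken by symbol from the 51912 genes of the deposited count files, and they were chosen by a reading of the genotype comparison in these libraries, in which Maf was already known to be low in HSA-NRTN pools. Their genotype values are therefore given as a description without a test, while sex, and the difference of the genotype effect between sexes, did not enter the choice and were tested. The libraries are pools of about 50 lumbar motor neurons, 1 pool per mouse, cut from frozen sections by laser, with capture limited to cells that showed a nucleolus and covered more than 200 μm2. The HSA-NRTN transgenic mice (5 libraries) carry neurturin, a ligand of the GDNF family, under the human skeletal actin promoter, a promoter of muscle fibres. Expression of the transgene in the captured cells was not examined here. Their wild-type littermates (5 libraries) carry no transgene, each group has 3 females and 2 males, while the sources used here do not state age, strain or founder line. Each library stands for 1 animal.

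Large Maf proteins such as c-Maf, the product of Maf, carry an activation domain and bind DNA as dimers through an extended recognition element. Small Maf proteins, MafF, MafG and MafK, lack that domain. They repress as homodimers, or form heterodimers with the CNC and BACH factors, among them NRF2 (gene Nfe2l2), whose dimers with small Mafs switch on antioxidant genes through the antioxidant response element. In the nervous system c-Maf is known from touch-sensing neurons of the dorsal root ganglia and from ventral interneurons of the spinal cord.

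Small Maf genes are themselves known as genes that respond to NRF2, so their promoters were read for the core of that element, TGACNNNGC, or GCNNNGTCA on the other strand. RefSeq windows on GRCm38.p6, from 250 bases before to 50 bases after an annotated start, were at hand for 3 of the 4 members (1 for Mafg, 1 for Mafk and 3 for Maff). Each of the 3 small Maf genes held a match in 1 window, out of 5 member windows. Of all 32544 windows 12.4% held a match, a share per window and not per gene. G and C made up 69.7% of the Mafg window, 68.3% of the Mafk window and 50.3% to 61.3% of the Maff windows. The median over all windows was 53.0%. An enrichment was not tested. The matches are printed 5′ to 3′ on the strand of the gene, with the core in capitals and 20 bases on each side.
Mafg, chr11:120633741-120633789, minus strand, core 222 to 214 bases before the start: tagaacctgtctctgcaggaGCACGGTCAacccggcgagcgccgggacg
Mafk, chr5:139791503-139791551, plus strand, core 13 to 5 bases before the start: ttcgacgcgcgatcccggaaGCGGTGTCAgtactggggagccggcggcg
Maff, chr15:79346489-79346537, plus strand, core 112 to 104 bases before the first start: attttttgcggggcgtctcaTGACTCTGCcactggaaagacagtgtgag
The Mafg and Mafk cores lie on the strand opposite to the gene and the Maff core on the same strand. A cAMP response element, TGACGTCA, was found in the second Maff window and in 1.8% of all windows, and a Maf half-site, TGCTGA or TCAGCA, in the Mafk window and in 19.5% of all. The AP-1 site TGAGTCA or TGACTCA, present in 5.19% of windows, was in none of the 5 member windows. A match is a run of letters and not a measured binding site.

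The libraries held 1875971 to 6641695 counts on genes, with 14090 to 19675 genes detected. The shallowest was HSA-NRTN replicate 2, which with wild-type replicate 1 stood apart in mitochondrial share of gene counts, at 11.9% and 12.9%, against 4.15% to 8.62% in the others. Levels are counts scaled to a library of 1000000 counts (CPM) after TMM normalization, given for replicates 1 to 5 in order. The males are HSA-NRTN replicates 1 and 2 and wild-type replicates 2 and 5. The 6 motor neuron markers summed to 2817 to 4183 CPM in HSA-NRTN and 2139 to 3597 CPM in wild-type pools. Slc5a7 was the largest part (means of 1897 and 1458 CPM), while Chat (116.7 and 89.5 CPM) and Isl1 (53.8 and 27.5 CPM) were small parts. Each of the 6 had counts in all 10 libraries. Markers of other cells were present as well and are given below. The Smart-seq2 chemistry copies full-length cDNA by PCR, adds no molecular identifiers and keeps no strand.

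Maf (ENSMUSG00000055435, chr8:115682942-115707794, minus strand, GRCm38) encodes c-Maf and had the highest counts of the family. Wild-type libraries held 211, 190, 129, 220 and 90.8 CPM (918, 671, 550, 1277 and 458 counts). HSA-NRTN libraries held 42.4, 63.2, 66.1, 30.5 and 44.6 CPM (143, 117, 361, 214 and 181 counts). Every HSA-NRTN library lay below every wild-type library, the nearest pair being replicate 3 of the transgenic and replicate 5 of the wild-type mice. Of all 11630 genes kept by the filter on low counts, 0.602% showed the same separation in this direction, a figure given as background only since this contrast chose the gene. The wild-type mean was 168 ± 55.8 CPM and the HSA-NRTN mean 49.4 ± 15.0 CPM (SD, n = 5 per group), a 3.40-fold lower level. The log2 difference was -1.77 (SE 0.31). In the authors' deposited table the moderated log2 value is -1.53. In pools of cells, fewer neurons with the transcript and less transcript per neuron cannot be told apart.

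The size of the Maf difference under other choices of libraries is given as a description, since all of them reuse the contrast that chose the gene. In females alone it was -1.96 and in males alone -1.43 on the log2 scale, and leaving out 1 library at a time gave -1.93 to -1.64. With both high-mitochondrial libraries removed it was -1.78. The animal numbers in the labels fall into an earlier and a later run, and the earlier run holds 3 HSA-NRTN and 1 wild-type mouse, so run and genotype are partly tied. With the run as a covariate the difference was -2.001. The within-genotype SD of log2 CPM was 0.50 for Maf, against a median of 0.47 over 1326 genes of like level.

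**Figure D1:**
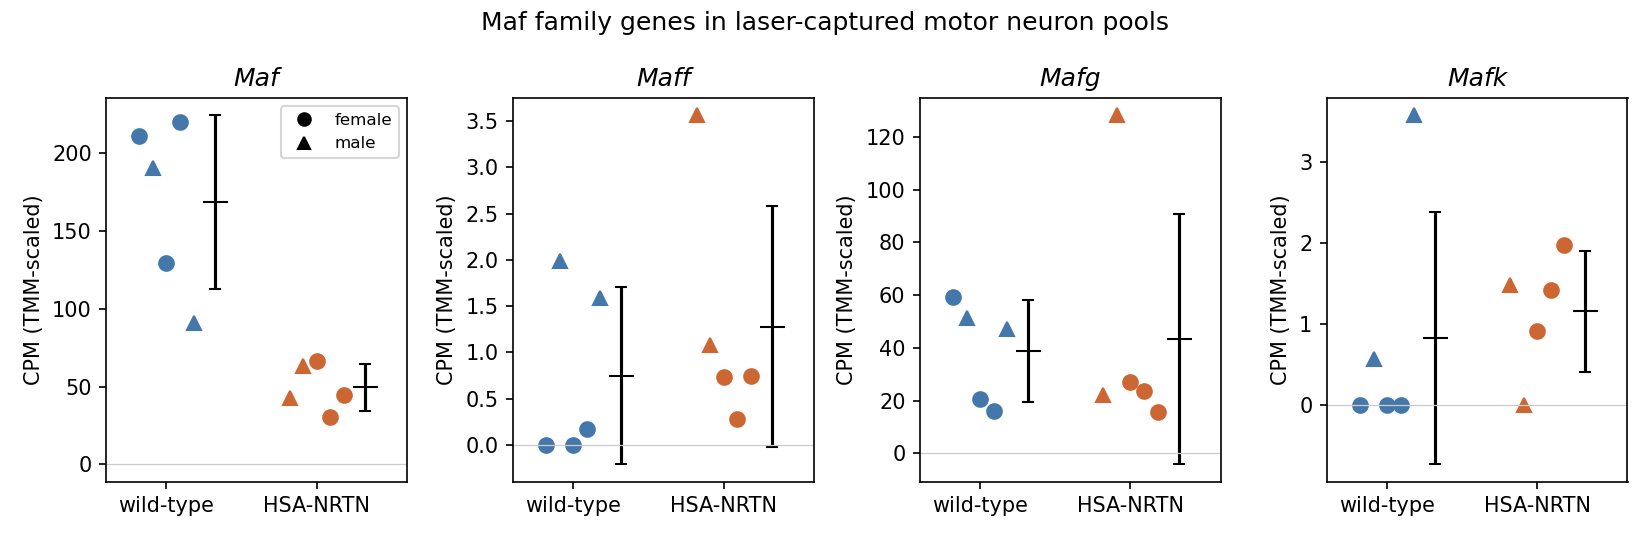
Level of each Maf gene in CPM (linear axes, one scale per panel) in the 10 libraries by genotype; points are libraries, circles females and triangles males, and the bar beside each group is mean ± SD (n = 5). Maf is separated by genotype, with the highest HSA-NRTN library at 66.1 and the lowest wild-type library at 90.8 CPM, while the groups overlap for the 3 small Maf genes.

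Maf did not pass a test for sex. The mean was 117 ± 83.4 CPM in 6 females and 96.6 ± 65.3 CPM in 4 males, a log2 difference, males over females with genotype in the model, of -0.12 (SE 0.31, edgeR quasi-likelihood test, adjusted p = 0.915). Among all 11630 genes 0.0086% passed this test, a single gene, Xist, and 11.2% had an unadjusted p under 0.05. The log2 genotype difference was smaller in size in males by 0.57 (SE 0.62, edgeR, adjusted p = 0.954), a value that ran from 0.07 without wild-type replicate 5 to 1.18 without wild-type replicate 2. For this interaction edgeR called 0% of genes (0 of 11630), 5.14% had an unadjusted p under 0.05, and DESeq2 called 16 genes.

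Markers of other cells that can carry Maf overlapped between the genotypes. The 8 microglia and macrophage markers summed to 7.89 to 39.6 CPM in HSA-NRTN and 4.65 to 22.1 CPM in wild-type pools, with medians of 13.6 and 17.0 CPM. The 8 markers of inhibitory interneurons summed to 12.8 to 199 CPM and 0.688 to 194 CPM, with medians of 80.8 and 82.3 CPM. Of the libraries with the most Maf, wild-type replicate 4 had the lowest inhibitory sum of its group and wild-type replicate 1 the highest. The 7 endothelial markers summed to 7.89 to 25.9 CPM and 1.72 to 21.8 CPM, with medians of 13.9 and 7.51 CPM. The 6 markers of excitatory interneurons summed to 135 to 374 CPM and 155 to 410 CPM, with medians of 258.9 and 222 CPM. Most of that sum was Cck (means of 127.4 and 165.5 CPM) and Slc17a6 (96.3 and 71.0 CPM), while Lmx1b and Tlx3 had 2 and 3 counts in all. No marker of these lists was at 0 in all libraries. For genotype edgeR called 0 of the 9 tested (of 29), against 0.0086% of all genes. At an unadjusted p under 0.05 there were 0, against 4.83% of all genes. DESeq2 called 0, against 0.498% of all genes, and gave no adjusted p for Kdr and Rorb. At such shares a count of 0 among so few genes is no result about these markers. The part of these cells in the Maf level was not tested. The antisense gene Gm15655, which shares 440 bp of exon with Maf, had 0 counts in all 10 libraries. The deposited counts tally 0.737% to 2.12% of all reads of a library as ambiguous, while the options of the counting are not stated.

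Mafg (ENSMUSG00000051510, chr11:120625117-120633600, minus strand) encodes the small Maf protein with the most counts in these cells. Wild-type libraries held 59.4, 51.3, 20.6, 16.01 and 47.0 CPM (858 counts in all), and HSA-NRTN libraries 22.2, 128, 26.9, 23.7 and 15.8 CPM (689 counts). The groups overlapped, with 4 of the 5 HSA-NRTN libraries inside a narrow band and HSA-NRTN replicate 2 far above all others. The wild-type mean was 38.9 ± 19.4 CPM and the HSA-NRTN mean 43.3 ± 47.6 CPM (SD, n = 5 per group), but the medians were 47.0 and 23.7 CPM, in the opposite order. The log2 genotype difference was 0.14 (SE 0.56) and turned to -0.81 without HSA-NRTN replicate 2. It was also negative without that library and wild-type replicate 1 (-0.61), in females alone (-0.50), with the run of animal numbers (-0.51) or sex (-0.08) as a covariate, in limma voom (-0.30), and without wild-type replicate 3 (-0.03) or replicate 4 (-0.07). The direction of Mafg by genotype thus turned with the libraries and the fit used.

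**Figure D2:**
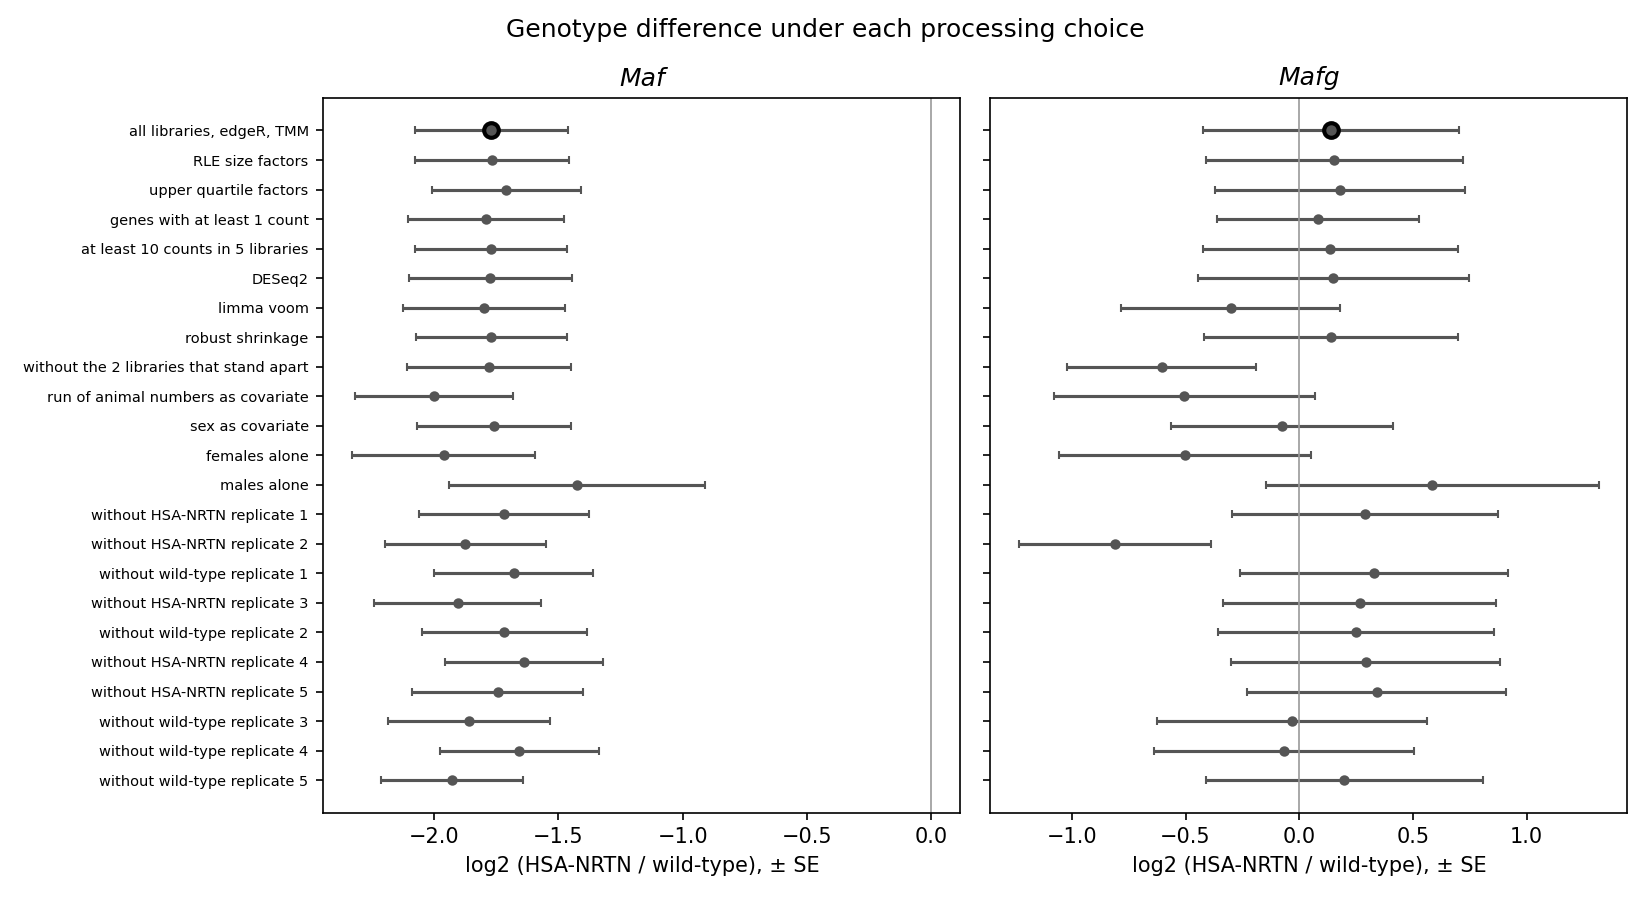
Genotype log2 difference (HSA-NRTN over wild-type) ± SE of Maf and Mafg under each processing choice; the large point is the fit with all libraries. Maf stays between -2.001 and -1.43, whereas Mafg lies on both sides of 0, from -0.81 without HSA-NRTN replicate 2 to 0.59 in males alone.

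With all libraries included, Mafg varied more between mice of one genotype than most genes of like level did. Its within-genotype SD of log2 CPM was 1.02, and 90.4% of 2033 genes of like level had a smaller one, against 55.7% of the 1326 genes compared with Maf. That SD includes HSA-NRTN replicate 2 at 128 CPM, while the rest of its group lay at 15.8 to 26.9 CPM. It was not computed without this library, so a spread particular to Mafg is not shown. The 4 libraries with the most Mafg were HSA-NRTN replicate 2 and wild-type replicates 1, 2 and 5, and these also had the 4 highest mitochondrial shares, 11.9%, 12.9%, 8.62% and 8.12%. The 6 astrocyte markers summed to 748 CPM in HSA-NRTN replicate 2 and to 295 and 235 CPM in wild-type replicates 1 and 2, but to 77.7 CPM in wild-type replicate 5. Most of each sum was 1 gene, Slc1a2, at 664.7, 215.3, 162.5 and 54.3 CPM in these libraries. In the other 6 libraries the astrocyte sum ran from 46.4 to 93.8 CPM. By group the astrocyte sum ran from 46.4 to 748 CPM in HSA-NRTN and from 50.7 to 295 CPM in wild-type pools. None of the 6 markers was at 0 in all libraries. For genotype edgeR and DESeq2 called 0 of the 4 tested, against 0.0086% and 0.498% of all genes. At an unadjusted p under 0.05 there were 0, against 4.83% of all genes. The 6 oligodendrocyte markers summed to 1419 CPM in HSA-NRTN replicate 2 and to 201 to 641 CPM in the others. The part of these cells in the Mafg level was not tested. Sirt7, which runs on the same strand and shares 124 bp of exon with Mafg, had 868 counts over all libraries, and reads in the shared stretch cannot be assigned to either gene with certainty.

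Mafg was higher in males before adjustment and did not pass after it. Males held 62.2 ± 45.8 CPM (n = 4) and females 27.1 ± 16.4 CPM (n = 6), with a log2 difference of 1.20 (SE 0.49, edgeR, unadjusted p = 0.0277, adjusted p = 0.41). The sexes overlapped, since wild-type replicate 1, a female, was second highest and HSA-NRTN replicate 1, a male, lay among the low libraries. Without HSA-NRTN replicate 2 the difference fell to 0.40 (edgeR, adjusted p = 0.874), and without wild-type replicate 1 it was 1.56 (adjusted p = 0.076). The interaction of genotype and sex was 1.13 (SE 0.97, edgeR, adjusted p = 0.931) and changed sign, to -0.61, without HSA-NRTN replicate 2.

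Maff (ENSMUSG00000042622, chr15:79346621-79359076, plus strand), a small Maf gene known to be induced by stress, was near the floor of detection. It had 39 counts in all, in 8 of 10 libraries. Wild-type libraries held 0, 1.98, 0, 0.172 and 1.59 CPM (0, 7, 0, 1 and 8 counts), and HSA-NRTN libraries 3.56, 1.08, 0.733, 0.285 and 0.740 CPM (12, 2, 4, 2 and 3 counts). Where no count was seen, 3 counts would be 0.689 CPM in wild-type replicate 1 and 0.704 CPM in replicate 3. The genotypes overlapped, with a wild-type mean of 0.748 ± 0.959 CPM and an HSA-NRTN mean of 1.28 ± 1.31 CPM (SD, n = 5 per group). Pooled over libraries the level was 0.696 CPM in wild-type mice (95% Poisson interval 0.398 to 1.13) and 1.06 CPM in HSA-NRTN mice (0.670 to 1.59). The log2 genotype difference was 0.73 (SE 1.64) and turned to -0.10 without HSA-NRTN replicate 1. The Poisson limits treat pooled reads as independent, which reads copied by PCR are not, and leave out the spread between mice. They are therefore likely too narrow.

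By sex the scaled Maff levels did not overlap, although the raw counts did. The 4 male libraries held 1.08 to 3.56 CPM and the 6 female libraries 0 to 0.740 CPM, a 6.38-fold higher mean in males (2.05 ± 1.07 against 0.322 ± 0.339 CPM). Of 26070 genes with at least 1 count, 0.579% had every male library above every female library in CPM. The difference did not pass the test across these genes, with a log2 difference of 3.08 (SE 1.83, edgeR, unadjusted p = 0.093, adjusted p = 0.613), while 1.21% of the 26070 genes passed. The unadjusted p was 0.00309 in limma voom (adjusted p = 0.395) and 0.0105 in DESeq2, which gave no adjusted p for Maff or Mafk. DESeq2 called 0.8% of genes for sex, and neither Maf nor Mafg was among them. The lowest male library, HSA-NRTN replicate 2, the shallowest of all, rests on 2 counts, while the highest female libraries hold 3 and 4 counts. Pooled, males had 2.10 CPM (95% Poisson interval 1.41 to 3.02) and females 0.323 CPM (0.155 to 0.594), limits that again leave out the spread between mice. The genotype by sex interaction was -2.40 (SE 3.32, edgeR, adjusted p = 1.0), an error too wide to place it on either side of 0, and was -4.07 without wild-type replicate 4.

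Mafk (ENSMUSG00000018143, chr5:139791513-139802653, plus strand), the partner of NF-E2 in blood cells, was as low. It had 48 counts in 6 of 10 libraries, and 18 of them came from wild-type replicate 5. Wild-type libraries held 0, 0.566, 0, 0 and 3.57 CPM (0, 2, 0, 0 and 18 counts), and HSA-NRTN libraries 1.48, 0, 0.916, 1.43 and 1.97 CPM (5, 0, 5, 10 and 8 counts). More HSA-NRTN than wild-type libraries had any count, 4 against 2, but the highest library was wild-type, and the means were 1.16 ± 0.748 and 0.827 ± 1.55 CPM (SD, n = 5 per group). In the libraries without a count, 3 counts would be 0.516 to 1.62 CPM, against 0.566 to 3.57 CPM in the libraries with counts. The log2 genotype difference was 0.50 (SE 1.66) and became 2.91 without wild-type replicate 5. The sex difference was 2.69 (SE 2.34, edgeR, adjusted p = 0.743) and the interaction -7.11 (SE 3.69, edgeR, unadjusted p = 0.0538, adjusted p = 1.0), a fitted value that rests on 3 wild-type females at 0. Single libraries moved both, the sex difference to 1.08 without wild-type replicate 5 and to 4.13 without HSA-NRTN replicate 2, and the interaction to -12.03 without HSA-NRTN replicate 1. In limma voom the interaction was -5.38 (unadjusted p = 0.00465, adjusted p = 0.509). Tmem184a, which shares 169 bp of exon with Mafk on the other strand, had 0 counts in all libraries.

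Compared per kilobase of exon, Maf led the family in wild-type neurons and did not lead clearly in HSA-NRTN neurons. Wild-type pools had 20.4 ± 6.77 CPM per kb of Maf and 6.93 ± 3.45 CPM per kb of Mafg, and Maf was above Mafg in all 5 libraries, by 2.41, 2.53, 4.26, 9.35 and 1.32 times. HSA-NRTN pools had 5.99 ± 1.82 CPM per kb of Maf and 7.72 ± 8.47 CPM per kb of Mafg, with ratios of Maf to Mafg of 1.30, 0.336, 1.67, 0.878 and 1.93. Mafg thus exceeded Maf in HSA-NRTN replicates 2 and 4, and these neighbours do not differ beyond their spread in the transgenic group. Maff (0.288 and 0.493 CPM per kb in wild-type and HSA-NRTN) and Mafk (0.212 and 0.297) came last in every library and changed places with each other. Set against 11613 kept genes with a known length, the wild-type Maf level per kb was above 80.2% of them and the HSA-NRTN level above 53.3%. For Mafg the shares were 57.3% and 60.2%.

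Other large Maf genes were read beside Maf. Mafa, the large Maf gene of pancreatic beta cells, had 0 counts, and Nrl, that of rod photoreceptors, was at 52 HSA-NRTN and 15 wild-type counts, under the filter. In the genotype test across all genes edgeR called 0.0086%, a single gene, Ptpro, 4.83% had an unadjusted p under 0.05, and DESeq2 called 0.498%.

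Among the dimer partners of the small Mafs, 3 of 6 CNC and BACH genes were measured above the filter. For genotype none was called by edgeR or DESeq2, against 0.0086% and 0.498% of all genes. In edgeR 0 had an unadjusted p under 0.05, against 4.83% of all genes. At such shares a count of 0 among so few genes is no result about them. Nfe2l1, which encodes NRF1, a controller of proteasome genes, had the most counts, with 98.5 ± 27.0 CPM (wild-type) and 88.6 ± 25.9 CPM (HSA-NRTN) (log2 difference -0.15, SE 0.27). Bach1, a heme-regulated repressor of antioxidant response elements, was at 12.2 ± 10.04 and 10.3 ± 6.86 CPM (-0.26, SE 0.65). Bach2, a repressor best known from lymphocytes, was at 4.63 ± 3.04 and 9.72 ± 3.79 CPM (1.07, SE 0.65, edgeR, unadjusted p = 0.121). For Bach2 3 of 5 HSA-NRTN libraries exceeded each wild-type library, and the share of all genes with as many was not computed. With both high-mitochondrial libraries removed, Bach2 had a log2 difference of 1.51 (SE 0.66, edgeR, unadjusted p = 0.0408, adjusted p = 1.0).

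Nfe2l2, the gene of NRF2, fell under the filter because its counts were uneven. HSA-NRTN libraries held 12.5, 20.5, 0.733, 2.85 and 1.73 CPM and wild-type libraries 0, 0, 0, 0 and 3.17 CPM, or 111 against 16 counts. All 5 HSA-NRTN libraries but 1 of 5 wild-type libraries had a count, although wild-type replicate 5 lay above 3 HSA-NRTN libraries. DESeq2 gave an adjusted p of 0.359. Nfe2l3, an NRF family member held in the endoplasmic reticulum, was at 48 HSA-NRTN and 11 wild-type counts (DESeq2, adjusted p = 0.727), and Nfe2, the NF-E2 subunit of blood cells, had 0 counts.

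Of the KEAP1 system, which holds NRF2 protein low, 4 of 4 genes were measured. Calls by edgeR and DESeq2 were 0, against 0.0086% and 0.498% of all genes. In edgeR 0 had an unadjusted p under 0.05, against 4.83% of all genes, which among so few genes is no result. Keap1, the adaptor that marks NRF2 for degradation, had means of 19.5 (wild-type) and 22.9 CPM (HSA-NRTN; log2 difference 0.22, SE 0.46). Cul3 and Rbx1, the ligase subunits it joins, had log2 differences of -0.11 (SE 0.24) and -0.14 (SE 0.24). Sqstm1, the autophagy receptor p62 that can sequester KEAP1, had the most counts of the 4, at 1624 and 1311 CPM (-0.31, SE 0.23).

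NRF2 target genes, the antioxidant and detoxifying enzymes switched on by NRF2 with small Mafs, went both ways. Of 28 listed genes 26 were measured above the filter, 15 with a positive and 11 with a negative log2 difference and a median of 0.08, against a median of -0.01 and 48.6% positive over all 11630 genes. None was called by edgeR or DESeq2, against 0.0086% and 0.498% of all genes. In edgeR 1 higher and 1 lower gene had an unadjusted p under 0.05, against 4.83% of all genes. With so few genes these counts are no result about the list. Tkt, transketolase of the pentose phosphate pathway, averaged 19.9 ± 2.98 CPM in wild-type mice and 37.7 ± 19.6 CPM in HSA-NRTN mice (0.92, SE 0.37, edgeR, unadjusted p = 0.0256, adjusted p = 0.941). The groups of Tkt were only just apart, the nearest pair being at 24.4 (HSA-NRTN) and 24.3 CPM (wild-type), and HSA-NRTN replicate 2 was the highest at 71.9 CPM. The share of all genes apart in this direction was not computed. Hmox1, heme oxygenase, was at 5.48 ± 2.70 and 0.892 ± 1.01 CPM (-2.55, SE 1.05, edgeR, unadjusted p = 0.0275, adjusted p = 0.941). For Hmox1 3 of 5 HSA-NRTN libraries were under each wild-type library, and the share of all genes with as many was not computed. Abcc1, a glutathione conjugate exporter, had a log2 difference of -0.91 (SE 0.49, edgeR, unadjusted p = 0.0859), and Mgst1, a membrane glutathione transferase, of 1.99 (SE 1.12, edgeR, unadjusted p = 0.0959). With both high-mitochondrial libraries removed, the median of the list was 0.01, with 0 higher and 1 lower gene at an unadjusted p under 0.05. That gene was Ugdh, a glucuronidation enzyme (-1.09, SE 0.39, edgeR, unadjusted p = 0.0152), and Tkt (0.64) and Hmox1 (-2.20) had unadjusted p of 0.0678 and 0.079.

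FOS and JUN proteins can pair with Maf proteins and share the AP-1 family of sites. Their genes had positive log2 differences in 5 of 5 measured genes of 7, with a median of 0.37. Over all 11630 genes the median was -0.01 and 48.6% were positive. None was called by edgeR or DESeq2, against 0.0086% and 0.498% of all genes. Fos alone had an unadjusted p under 0.05 in edgeR, against 4.83% of all genes. With so few genes these counts are no result about the list. Fos, an activity-induced gene in neurons, averaged 15.7 ± 3.97 CPM in wild-type mice and 29.4 ± 12.9 CPM in HSA-NRTN mice (0.90, SE 0.41, edgeR, unadjusted p = 0.0433, adjusted p = 0.999). For Fos 4 of 5 HSA-NRTN libraries lay above each wild-type library, and the share of all genes with as many was not computed. Jun, its partner and a gene induced by axon injury, was at 63.0 and 95.9 CPM (0.60, SE 0.53). Junb, Jund and Fosl2 had log2 differences of 0.37 (SE 0.70), 0.10 (SE 0.60) and 0.36 (SE 0.83). Fosb (12 wild-type and 8 HSA-NRTN counts) and Fosl1 (0 and 5) were under the filter. With both high-mitochondrial libraries removed the median of the list was 0.12 and 0 genes had an unadjusted p under 0.05. The log2 differences were then 0.55 (Fos), 0.14 (Fosl2), 0.12 (Jun), 0.03 (Junb) and -0.18 (Jund).

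**Figure D3:**
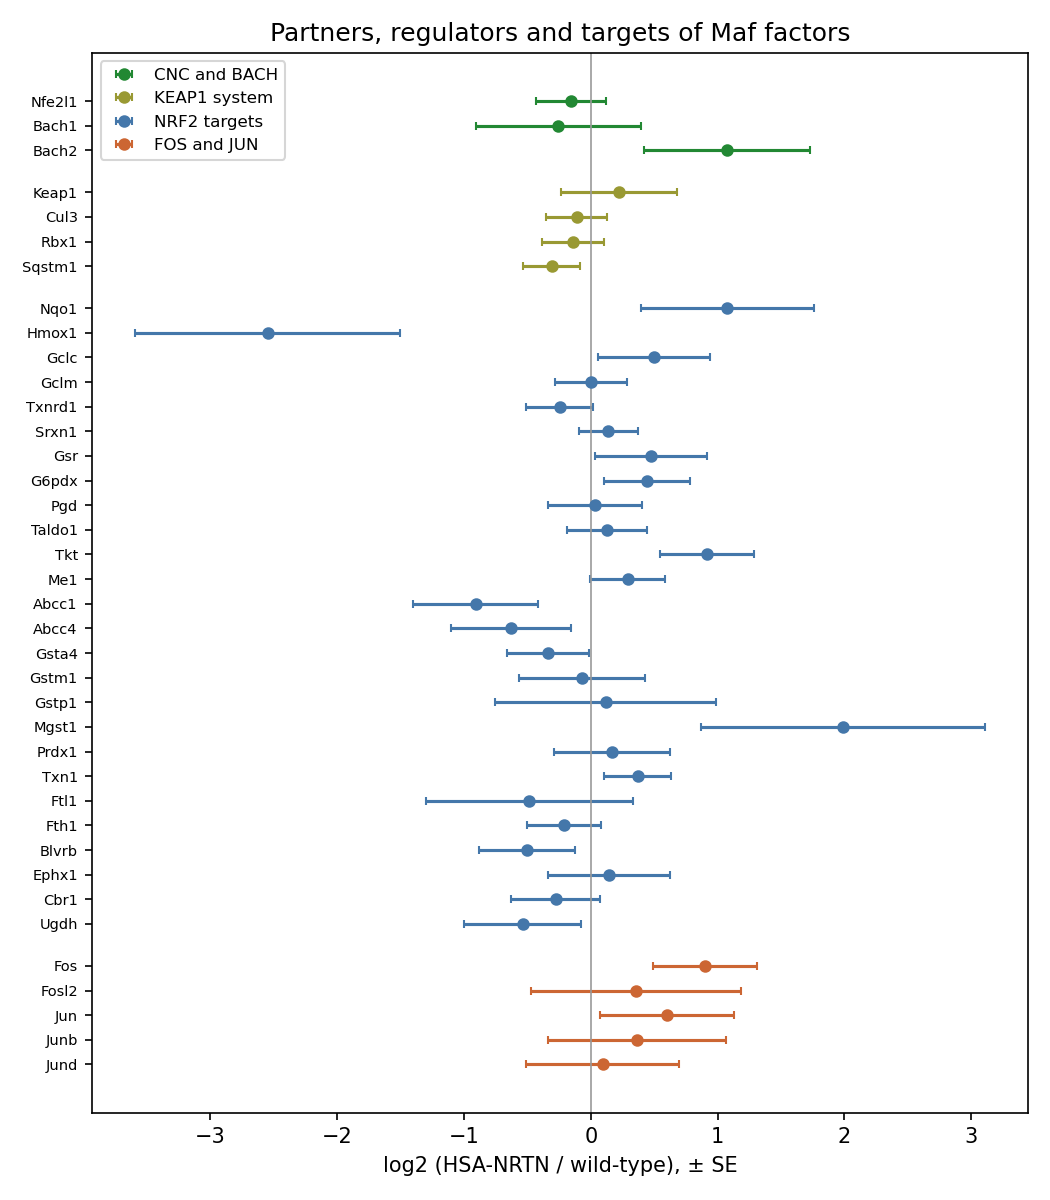
Genotype log2 difference (HSA-NRTN over wild-type) ± SE from edgeR of the tested genes of the 4 lists of dimer partners, KEAP1 system, NRF2 targets and FOS and JUN genes. Points lie on both sides of 0, from -2.55 for Hmox1 to 1.99 for Mgst1. Of the 38 genes 0 passed the adjusted threshold, against 0.0086% of all genes.

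Of 5 genes linked to c-Maf in touch-sensing neurons 2 passed the filter. Calls by edgeR and DESeq2 were 0, against 0.0086% and 0.498% of all genes. In edgeR 1, Ret, had an unadjusted p under 0.05, against 4.83% of all genes. Ret, the signalling receptor of GDNF family ligands and a marker of early touch neurons, averaged 420 ± 72.5 CPM in wild-type mice and 852 ± 325 CPM in HSA-NRTN mice, opposite in direction to Maf (log2 difference 1.02, SE 0.27, edgeR, unadjusted p = 0.00159, adjusted p = 0.403, DESeq2 adjusted p = 0.0576). Gfra2, the co-receptor that binds neurturin, had 50 counts in 3 wild-type libraries and 0 in the HSA-NRTN libraries, under the filter (DESeq2, adjusted p = 0.353). Kcnh5, a voltage-gated potassium channel gene, was at 8.12 and 5.91 CPM (-0.50, SE 0.83), and Mafa had 0 counts. With both high-mitochondrial libraries removed Kcnh5 had a log2 difference of -1.78 (SE 0.75, edgeR, unadjusted p = 0.0337, adjusted p = 1.0) and Ret of 0.88 (SE 0.29, unadjusted p = 0.0093, adjusted p = 0.807), and the median of the tested pair moved from 0.26 to -0.45.

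Over the 10 libraries the gene whose level was most like that of Maf was Rspo2, a secreted activator of Wnt signalling, with a Pearson r of log2 CPM of 0.988 among 8191 candidate genes. Wild-type libraries held 410, 371, 239, 364 and 183 CPM of Rspo2 and HSA-NRTN libraries 62.9, 115, 138, 56.6 and 98.4 CPM. The high and low libraries of each group were nearly the same as for Maf. Diras2, a small GTPase (0.953), Atp8a1, a phospholipid flippase (0.95), and Hpcal1, a neuronal calcium sensor (0.943), followed. These values hold the genotype difference that chose Maf. After each genotype mean was subtracted, Rspo2 still led (0.943), before Grtp1 (0.907), Atp8a1 (0.87) and Mib1, a ubiquitin ligase of Notch ligands (0.865). The libraries share depth and capture across all genes, and the values are descriptions over 10 points.

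Mafg followed other genes than Maf did. Its level was close to that of Slain1, a microtubule regulator (r = 0.932), Sox9, an astrocyte transcription factor (0.929), and Slc1a2, the astrocytic glutamate transporter (0.92). Sox9 was at 43.8 CPM in HSA-NRTN replicate 2, at 38.8, 25.5 and 18.1 CPM in wild-type replicates 1, 2 and 5, and at 1.73 to 11.7 CPM in the other 6 libraries, so its 4 highest libraries were those of Mafg in the same order. With genotype means subtracted Impad1 (0.952), Sox9 (0.947) and Sparc, a secreted matrix protein (0.94), were close to it. Slc1a2 is also one of the 6 astrocyte markers summed above and makes up most of that sum in the libraries with the most Mafg. The marker sum is therefore not separate from this correlation.

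**Figure D4:**
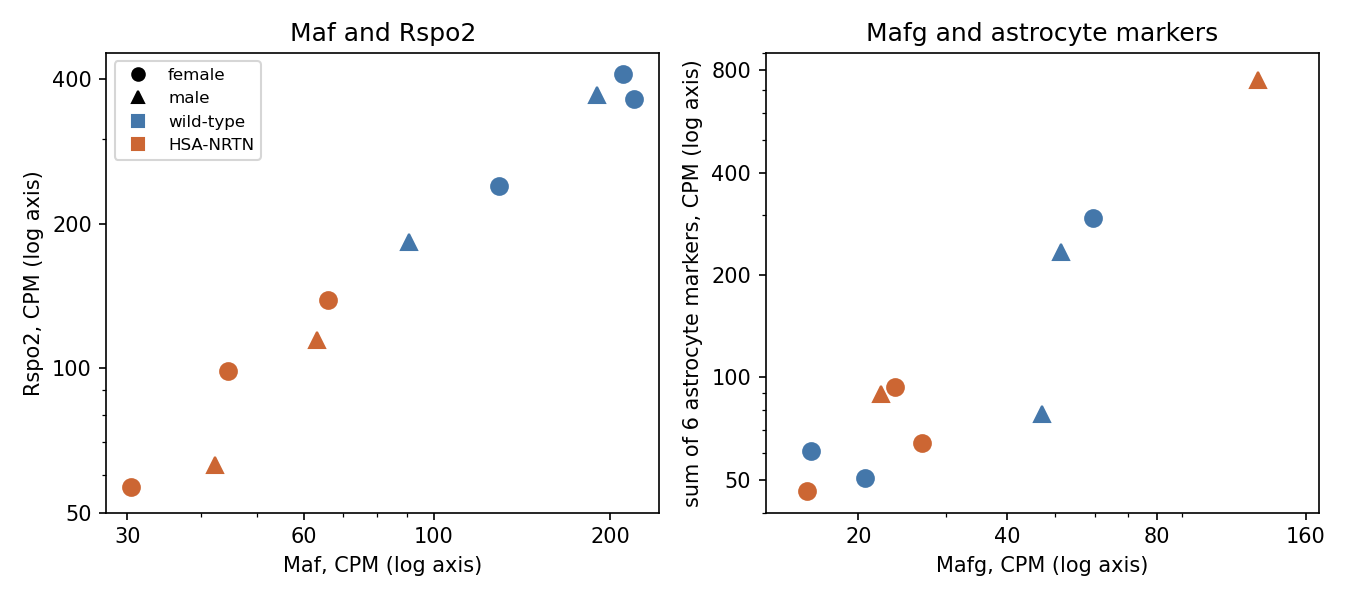
Left, Maf against Rspo2, and right, Mafg against the sum of 6 astrocyte markers, in CPM on log axes; points are the 10 libraries, circles females and triangles males, blue wild-type and orange HSA-NRTN. Maf and Rspo2 are high and low in nearly the same libraries (r = 0.988). HSA-NRTN replicate 2 is highest for Mafg (128 CPM) and astrocyte markers (748 CPM, of which Slc1a2 alone is 664.7 CPM). Wild-type replicate 5 has 47.0 CPM of Mafg at a marker sum of 77.7 CPM.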

How the data were processed

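RNA of laser-captured lumbar motor neuron pools was made into Smart-seq2 libraries with Tn5 fragmentation, per the labels' protocols. The submitters' processing notes list STAR 2.5.0a, HTSeq and GRCm38.p6; no annotation release or counting option is stated. As deposited by the authors, the count files give raw counts of 51912 genes, 92 ERCC sequences and 5 tally entries, and the last 2 kinds were left out. The authors' deposited signal, for 18754 features, is the counts of a library divided by 1 factor. The authors' deposited comparison table gives moderated log2 values, a test score and p-values. Of these the signal served as an alternative scale and the log2 values for comparison.

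Coordinates and lengths are from GENCODE M21. Counts were fitted in R 4.3.3 with edgeR 4.0.16 (filterByExpr, TMM, quasi-likelihood test, Benjamini-Hochberg adjustment over all genes, called under 0.05), which kept 11630 genes. Maff and Mafk fell under this filter and were fitted among 26070 genes with at least 1 count, a choice made after seeing the data. Sex was fitted with genotype in the model, and the interaction with both. DESeq2 1.42.0, limma 3.58.1, other scalings and filters, covariates and left-out libraries were alternatives. Standard errors come from the F statistic. Replicate numbers follow record order and pair no animals. On simulated counts for genotype, edgeR recovered 5.97%, 48.5% and 73.1% of 2-, 4- and 8-fold changes among 11630 genes. For sex it recovered 2.63%, 35.7% and 76.5%, so a sex difference of 2-fold would mostly be missed.

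The members and lists were chosen with earlier results of these data known. Named were the 4 members, all genes of lists of up to 7, the 4 of smallest unadjusted genotype p of longer lists, and, for members above the filter, the 4 genes (mean of at least 10 CPM) with the highest Pearson r of log2 CPM (prior count 2). Ugdh, Xist, Ptpro, Sirt7, Gm15655 and Tmem184a were named after their values were seen. Some genes that this rule names are not reported here.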

Additional observations from a re-analysis of the deposited data

Results flagged for a closer look

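In 3 groups of 5 libraries 1 library stood far from the rest by Dixon's criterion, which chance meets in about 1 in 20 groups. Mafg was at 128.1 CPM in HSA-NRTN replicate 2, with a gap to the next library of 0.901 of the range of its group. Maff was at 3.56 CPM in HSA-NRTN replicate 1, a gap of 0.757, on 12 counts. Mafk was at 3.57 CPM in wild-type replicate 5, a gap of 0.841, on 18 counts.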

How the results depend on the processing

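The genotype difference of Maf ran from -2.001 to -1.43 on the log2 scale over 22 alternatives, and that of Mafg from -0.81 to 0.59. All alternatives reuse libraries of the contrast that chose Maf, in which its groups lie apart. The unchanged sign of Maf is thus a description and no support. For Maff the genotype difference was 2.81 in females alone and turned to -0.10 without HSA-NRTN replicate 1. For Mafk it was 1.71 in limma voom, 2.42 with sex as a covariate, 5.92 in females alone and -1.40 in males alone, and 0.19 to 2.91 when 1 library was left out. The sex difference of Maf was -0.31 to 0.088 when 1 library was left out, positive only without wild-type replicate 5. The interaction of Mafg was -1.42 without the 2 libraries of highest mitochondrial share, -0.20 with the run of animal numbers as a covariate, and -0.61 to 1.84 when 1 library was left out. For genotype 81 genes were called among those with at least 1 count, 126 by DESeq2, 3 by limma voom, 9 with robust shrinkage, 5 with sex and 0 with the run as a covariate, 0 within females, 0 within males, and 0 to 13 with 1 library left out. For sex these were 315 with at least 1 count, 205 by DESeq2, 0 by limma voom, and 1 to 176 with 1 library left out, the highest without wild-type replicate 1. For the interaction they were 35 with at least 1 count and 16 by DESeq2. The cause was not tested. The interaction alternatives, and those of the gene lists, where 0 genes were called by DESeq2 or without the 2 libraries, were chosen after seeing the data. No paired analysis was possible because the labels number no replicates and tie no animals across the groups. At this depth 39 and 48 counts in all limit what Maff and Mafk can show.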
